A study of Mus musculus with 3 samples.

Results

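The cytosolic ribosomal protein genes are the genes for the proteins of the 40S and 60S subunits of the ribosome. They were taken by symbol: every feature named Rpl or Rps followed by a number, with Rplp0, Rplp1, Rplp2 and Rpsa, leaving out pseudogenes and the Rps6k kinases, and with at least 500 unique molecular identifiers (UMIs, each standing for 1 captured RNA molecule) summed over the series. Of 32285 features, 86 had such a symbol and 83 reached the minimum, among 10868 features in all that reached it. The rule uses no values of the genes beyond this minimum, but it was set with earlier results of these data known. By their names, 33 belong to the small (40S) subunit and 48 to the large (60S) subunit, and 2 are matches of the symbol only. These are Rps19bp1, which binds a ribosomal protein, and Rpl7l1, a nucleolar relative of Rpl7.

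The genes were measured in mouse colon organoids, which are spheres of primary colon epithelium grown without stroma or immune cells in a gel. There were 3 libraries, made with droplet 3' single-cell RNA sequencing (sc-RNAseq): organoids left untreated, organoids given IFN-γ for 24 h and organoids given IFN-γ for 48 h, all in full medium with Wnt, R-spondin, EGF and Noggin. The labels give no strain, sex or age for these libraries, and dead cells were sorted out by DAPI before capture. Each condition has 1 library, so no test across samples was possible, both treated libraries were compared with the same untreated library, and treatment cannot be told apart from any other difference between the libraries. Intervals cover counting error only.

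The ribosome reads messenger RNA on its 40S subunit and joins amino acids on its 60S subunit, and each carries a fixed set of proteins. The messages of these proteins are among the most abundant of a dividing cell. They begin with a stretch of C and T (the terminal oligopyrimidine tract, TOP), through which growth signals control their translation and stability. In the colon the need for ribosomes is high in the dividing cells at the base of the crypt. In myeloid cells, RPL13A leaves the ribosome after IFN-γ and represses translation of some messages as part of the GAIT complex.

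The libraries stood apart in depth before any gene was considered. Of the filtered cells (at least 5000 UMIs and 400 genes, at most 15% mitochondrial UMIs), 1058 were untreated, 917 had IFN-γ for 24 h and 2934 for 48 h. Their median depth was 33550, 68784 and 10772 UMIs per cell. The median mitochondrial share was 4.83%, 2.12% and 6.14%, and the median share of 3 RNAs kept in the nucleus (Malat1, Neat1 and Kcnq1ot1) was 0.947%, 0.305% and 0.568%. The IFN-γ response followed the labels: 26 of 26 genes of an IFN-γ response list were past 1.5-fold higher at both times, and the list took 0.0167%, 0.852% and 1.13% of UMIs. Of all features, 5.75% were past this fold at 24 h and 7.22% at 48 h. The list was chosen with earlier results of these data known, so it is not an independent check of the labels. All 6 epithelial markers were present (Epcam at 1435, 1463 and 1184 CPM, the UMIs of a gene scaled to an equal total in each library), although 5 of the 6 had a lower CPM at 24 h and their median log2 ratios were −0.50 (24 h) and −0.42 (48 h). Krt19 had the lowest ratios, at 1982, 989 and 819 CPM. In contrast, 10 immune and 10 stromal markers summed to at most 4.02 CPM in any library. Between any pair of libraries at most 4 cell barcodes were shared.

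The start of the message is shown for 9 of the genes described below, chosen after their values were seen: 4 with low ratios (Rpl35, Rps28, Rpl10, Rpl38), 3 with high ratios (Rpl27, Rps15a, Rps15), and a pair of paralogues that moved apart (Rps27 and Rps27l). Each line gives 15 bases before and 15 bases from the annotated start onward, 5′ to 3′ on the gene's strand, from RefSeq on GRCm38.p6. The longest run of C and T that reaches within 10 bases of the start is in capitals, as far as the window holds it. Rpl35 (chr2:39005117-39005146, minus strand) and Rpl38 (chr11:114668565-114668594, plus strand) had runs of 18 and 10 bases, whereas Rpl10 (chrX:74270801-74270830, plus strand) and Rps28 (chr17:33824548-33824577, minus strand) had runs of 3 and 4.
Rpl35: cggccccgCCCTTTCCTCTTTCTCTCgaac
Rpl38: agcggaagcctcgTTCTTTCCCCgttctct
Rpl10: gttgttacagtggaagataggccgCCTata
Rps28: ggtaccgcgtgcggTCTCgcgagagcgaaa
Rpl27: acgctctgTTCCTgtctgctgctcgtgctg
Rps15a: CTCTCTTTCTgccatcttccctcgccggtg
Rps15: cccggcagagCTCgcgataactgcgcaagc
Rps27: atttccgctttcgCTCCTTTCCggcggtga
Rps27l: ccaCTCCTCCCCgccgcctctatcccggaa
Of the genes with high ratios, Rpl27 lies at chr11:101442230-101442259 (plus strand), Rps15a at chr7:118116133-118116162 (minus strand) and Rps15 at chr10:80292416-80292445 (plus strand). Rps27 lies at chr3:90213634-90213663 (minus strand) and the first of 2 annotated starts of Rps27l at chr9:66946071-66946100 (plus strand).

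Among the genes shown with low ratios, some had a long run and some did not. Of those with high ratios, Rpl27 and Rps15 had runs of 5 and 3 bases. Rps15a had a run of 10 bases. Rps13 (run of 2 bases) and Rpl22l1 (run of 10 bases) were also high at 24 h but are not printed. The marked runs of Rpl27, Rps15, Rps15a and Rps27l ended before the annotated start, so by the annotation they are not part of the message. Promoter windows of 300 bases were found for 63 of the 83 genes, and Rps29 and Rps20 were not among them. A run of at least 8 C or T near the start was present in 29 of these 63 (46.0%), against 15.8% of 27025 genes with a window. Such a run could also lie wholly before the start. The letters CCGGAA, the core of the site of ETS factors, were present on either strand in 35 of 63 (55.6%), against 16.7% of all. The share of each gene in the summed ribosomal protein UMIs had a median log2 ratio to untreated of 0.11 at 24 h and 0.04 at 48 h in the 29 genes with a run, and of −0.10 and −0.06 in the 34 without.

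As a group, the ribosomal protein genes took a larger share of the RNA in both treated libraries. They summed to 9705923 of 49801935 UMIs (19.5%) in untreated cells, 17967573 of 71077817 (25.3%) after 24 h and 10420822 of 47243500 (22.1%) after 48 h. The log2 ratio to untreated was 0.38 at 24 h (1.30-fold, counting interval 0.37 to 0.38) and 0.18 at 48 h (1.13-fold, counting interval 0.18 to 0.18). These values depended on the mitochondrial content of the cells, in a split at 5% chosen after seeing the data. Cells with at most 5% mitochondrial UMIs had shares of 21.9% untreated, 26.0% at 24 h and 24.5% at 48 h (log2 0.24 and 0.16). Cells above 5% (517, 218 and 1675 cells) had 12.88%, 12.87% and 17.2%, so the summed share was not higher at 24 h in these cells, while at 48 h the log2 ratio was 0.42. The median cell of this class had 9.02%, 11.4% and 16.9%. Over all alternatives the 48 h value ranged from 0.15 to 0.70.

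The summed share hides a wide spread between cells, and the libraries differed in how many cells were poor in ribosomal protein RNA. The median cell had 14.8% of its UMIs in these genes in the untreated library (quartiles 8.34% and 22.1%), 24.2% after 24 h (16.0% and 27.0%) and 20.2% after 48 h (16.1% and 24.5%). The untreated cells formed a low and a high group with few cells near 15%. A share below 10%, a limit set after the distribution was seen, was found in 370 of 1058 untreated cells (35.0%, exact interval 32.1 to 37.9%). The same was found in 92 of 917 cells (10.0%, 8.16 to 12.2%) after 24 h and in 51 of 2934 cells (1.74%, 1.30 to 2.28%) after 48 h. After thinning every cell to 5000 UMIs at random, the shares of such cells were 34.6%, 10.0% and 1.81%. A share of 25% or more was found in 12.4%, 43.9% and 21.6% of cells.

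**Figure D1:**
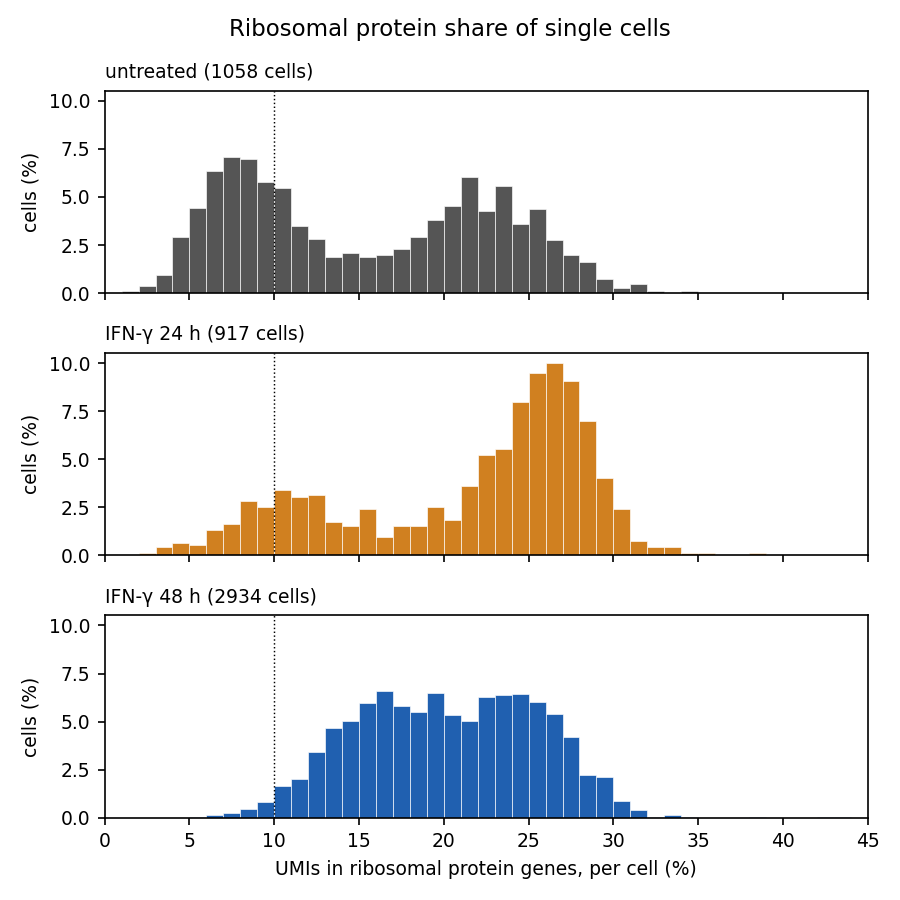
Histograms of the share of a cell's UMIs in the 83 ribosomal protein genes (x axis, percent) for each library (y axis, percent of its cells, in bins 1 percentage point wide). The dotted line is at 10%: 35.0% of untreated cells, 10.0% of cells after 24 h and 1.74% after 48 h lie to its left.

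Cells poor in ribosomal protein RNA differed from the other cells in further ways. In the untreated library the cells under 10% had a median of 16110 UMIs, 10.2% mitochondrial and 1.99% nuclear RNA, against 74377 UMIs, 3.13% and 0.441% in cells with 20 to 25%. Genes of the stem list (Lgr5, Axin2 and 11 others) summed to 2730 CPM in the untreated cells under 10% and 1201 CPM in those at 20% or more. The corresponding values were 1826 and 764 CPM at 24 h and 2379 and 1085 CPM at 48 h. Genes of enteroendocrine cells (Chga, Neurod1 and 8 others) summed to 675 against 7.59 CPM in untreated, 585 against 84.9 CPM at 24 h and 1497 against 25.3 CPM at 48 h, although the median cell under 10% had none of their UMIs in any library. The colonocyte list was also higher in the sum, with 3276 against 1362 CPM in untreated, 2481 against 356 CPM at 24 h and 1782 against 346 CPM at 48 h, but not in the median cell (471 against 512 CPM in untreated). The goblet list was lower in the sum, with 1202 against 2127 CPM, 260 against 1057 CPM and 509 against 684 CPM. In the median cell it was higher, with 369 against 282 CPM, 136 against 113 CPM and 346 against 215 CPM. The G2/M list had 3292 against 2805 CPM, 3094 against 3090 CPM and 1883 against 2647 CPM. The S phase list was lower in each library, with 1413 against 1541 CPM in untreated, 1309 against 1557 CPM at 24 h and 1033 against 1350 CPM at 48 h. The part of mitochondrial and nuclear RNA in the result was not tested.

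Cell depth moved with the ribosomal protein share within each library. Across the cells of a library, Spearman's rho of the share with depth was 0.62, 0.64 and 0.50 in the order untreated, 24 h and 48 h (1058, 917 and 2934 cells). With the mitochondrial share it was −0.61, −0.59 and −0.72, and with the nuclear RNA share −0.73, −0.80 and −0.72. These are descriptions, since the shares of 1 cell sum to a fixed total and cells of a library are not replicates.

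Within bins of equal depth the treated libraries still had the higher share, by an amount that varied with depth. Cells with 5000 to under 10000 UMIs had 11.1% untreated, 14.1% at 24 h and 17.5% at 48 h. Cells with 10000 to under 20000 UMIs had 8.82%, 12.2% and 21.2%, and those with 20000 to under 40000 had 12.3%, 16.5% and 24.1%. From 40000 to under 80000 UMIs the values were 20.9%, 25.1% and 23.6%, and above that 22.0% and 26.4%, with only 3 cells at 48 h. On the log2 scale the difference from untreated cells of the same bin ran from 0.26 to 0.47 at 24 h in 5 bins and from 0.17 to 1.27 at 48 h in 4 bins. The lowest 48 h value, 0.17, was that from 40000 to under 80000 UMIs. A bin held unlike parts of the libraries, whose median depth was 33550, 68784 and 10772 UMIs. Between 10000 and under 20000 UMIs, for example, the nuclear RNA share was 2.31%, 1.55% and 0.621%. Equal depth therefore did not mean like cells.

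**Figure D2:**
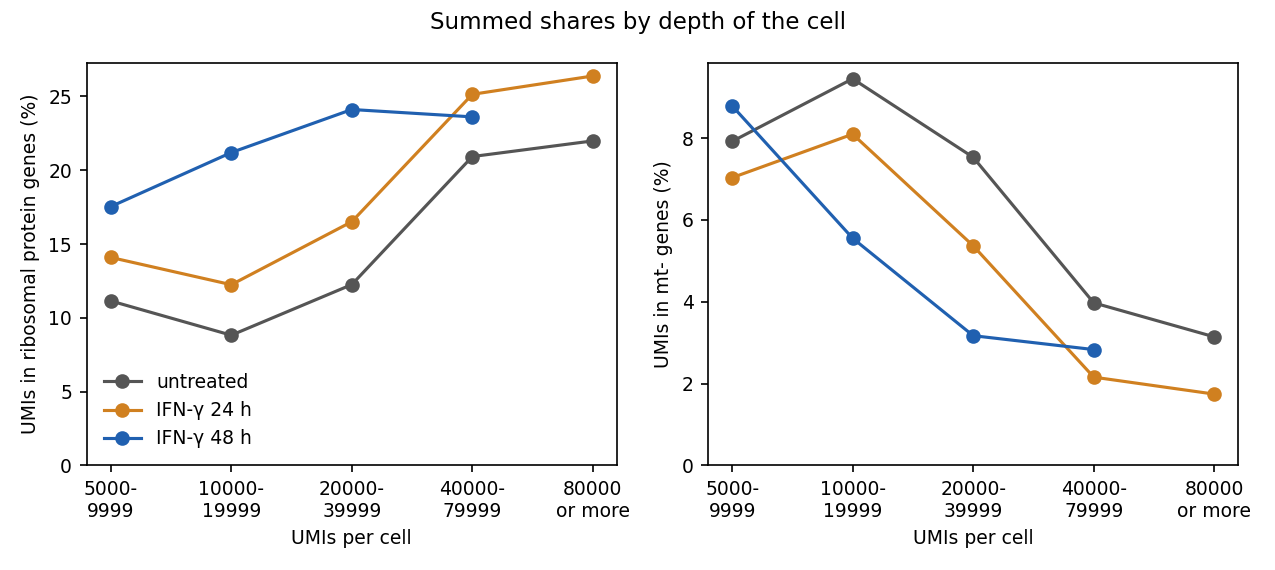
Left, the share of UMIs in ribosomal protein genes (percent), summed over the cells of each depth bin (x axis, UMIs per cell), 1 line for each library. Right, the share in mitochondrial genes in the same cells; bins with under 20 cells are not drawn, and the largest gap on the left is at 10000 to under 20000 UMIs (8.82% untreated, 21.2% at 48 h).

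The cells poor in these RNAs were less frequent in the treated libraries at equal depth too. Between 10000 and under 20000 UMIs, 175 of 248 untreated cells (70.6%), 47 of 131 at 24 h (35.9%) and 27 of 713 at 48 h (3.79%) had a share under 10%. When the mitochondrial share in these cells was also held between 5% and 10%, the counts were 55 of 78 (70.5%), 21 of 44 (47.7%) and 16 of 251 (6.37%). Among cells of any depth with at most 5% mitochondrial UMIs, the counts were 63 of 541 (11.6%), 21 of 699 and 8 of 1259 (0.635%). Above 5% they were 307 of 517 (59.4%), 71 of 218 (32.6%) and 43 of 1675 (2.57%). Mitochondrial content was itself lower in the treated cells of most bins, for example 9.45%, 8.10% and 5.55% between 10000 and under 20000 UMIs.

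Barcodes below the filter also carried many of these RNAs. The deposited matrices held 17603, 15994 and 14296 barcodes with under 2000 UMIs, and ribosomal protein genes took 27.7%, 30.7% and 34.5% of their UMIs. These levels were higher than in the filtered cells of the same library, and the order of the libraries differed from that in the cells. The shallowest barcode had 1390, 851 and 1624 UMIs, so the ranges of depth compared here differ between the libraries. How much of each cell's ribosomal protein RNA came from such background was not tested.

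Cell state was read from marker lists, by taking the 10% of cells in each library with the highest list UMIs after thinning. These are ranges of a score and not cell types. The clearest difference was for the stem list: the highest 10% of untreated cells had 10.5% of their UMIs in ribosomal protein genes against 19.9% in the other cells. The values were 18.4% against 25.7% at 24 h and 15.2% against 22.5% at 48 h. Untreated cells high for the stem list were also shallower (median 15081 against 41239 UMIs) and had more mitochondrial RNA (10.1% against 4.40%). Compared within depth bins, the mean log2 difference was −0.49, −0.45 and −0.47 for untreated, 24 h and 48 h.

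Cells high for cycling genes differed less from the rest in their summed share, the most for G2/M genes in the untreated library. The highest 10% for S phase genes had 19.96% against 19.4% untreated, 24.2% against 25.4% at 24 h and 22.2% against 22.0% at 48 h. For G2/M genes the values were 16.8% against 19.8%, 23.7% against 25.4% and 22.4% against 22.0%. Within depth bins the mean log2 difference for G2/M genes was −0.41 in untreated cells, close to that for the stem list, and −0.22 and −0.05 at 24 h and 48 h. The median untreated cell high for G2/M genes had 8.49% against 15.6% in the rest. Cells high for colonocyte or goblet genes were also close to the rest in the summed share. Colonocyte genes gave 18.2% against 19.6%, 24.7% against 25.4% and 22.6% against 22.0%. Goblet genes gave 18.6% against 19.6%, 26.4% against 25.1% and 21.6% against 22.1%. The median untreated cell had 17.0% against 13.8% for colonocyte genes and 17.8% against 13.7% for goblet genes. The limits of these scores were 22 and 24 UMIs in untreated cells but 4 and 5 UMIs in each treated library, so the ranges are not alike. For enteroendocrine genes the value was 11.9% against 19.8% in untreated cells, where 103 cells were tied at the limit of 1 UMI, and the score could not be read in the treated libraries, where the limit was 0 UMIs. Within each of the 5 other score ranges both treated libraries had a higher share than the untreated library. The log2 differences ran from 0.28 (S phase) to 0.80 (stem) at 24 h. They ran from 0.16 (S phase) to 0.53 (stem) at 48 h. The stem limits were unlike too: 20 UMIs (untreated), 10 UMIs (24 h) and 13 UMIs (48 h). Cells in these stem ranges had 4643, 2149 and 2947 CPM of the list, so 0.80 and 0.53 compare unlike ranges.

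**Figure D3:**
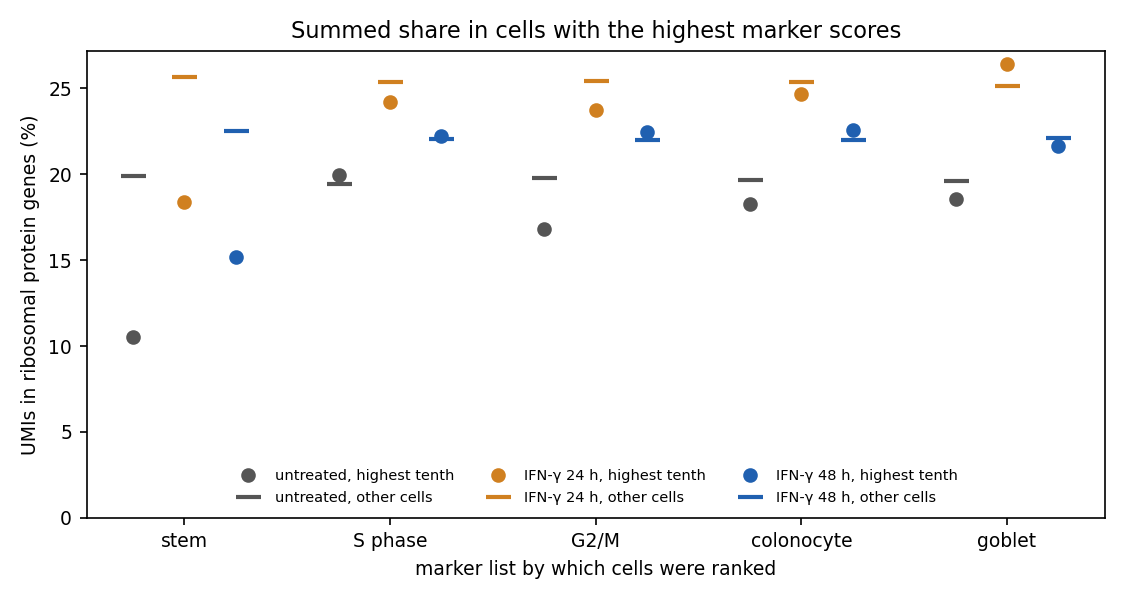
Share of UMIs in ribosomal protein genes (y axis, percent), summed over the highest 10% of cells of each library for a marker list (points) and over its other cells (short bars). The stem list stands apart, at 10.5% against 19.9% in untreated cells, and among the other 4 lists drawn the widest gap is that of the G2/M list in untreated cells (16.8% against 19.8%). The enteroendocrine list is not drawn, since its score could not be read in the treated libraries.

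Gene by gene, most members had a higher CPM after IFN-γ. At 24 h, 75 of 83 genes had a log2 ratio above 0, against 3317 of all 10868 features. Their median was 0.43, while that of all features was −0.27. Abundant features were nearer to the members at this time. Among other features with at least 500 CPM in untreated cells, the medians were 0.33 (14 that encode at most 100 amino acids) and 0.11 (128 longer ones). Of the members, 17 were past 1.5-fold higher, where 5.75% of all features were, and 1 was past 1.5-fold lower, where 28.3% of all features were. At 48 h, 61 of 83 had a ratio above 0, against 4519 of all features, and the median was 0.21 against −0.09 for all features. The same abundant features then had medians of 0.12 and −0.22. Then 4 members were past 1.5-fold higher (7.22% of all features) and 5 were past 1.5-fold lower (15.7%). TMM scaling, which estimates a factor for each library from its features, here added 0.45 (24 h) and 0.19 (48 h) to each log2 ratio. The median of all features was then 0.18 and 0.10. With it the split was 69 higher and 0 lower at 24 h (22.2% and 10.7% of all features) and 18 higher and 4 lower at 48 h (12.3% and 10.4%). The counts at 48 h also depended on depth: averaged over the 4 depth bins shared by all libraries, 55 members were past 1.5-fold higher and 0 lower (9.08% and 27.3% of all features). With at most 5% mitochondrial UMIs, 2 members were past 1.5-fold higher at 24 h (5.05% of all features), and above 5% it was 0 higher and 3 lower (9.76% and 13.7%). Of the 83 genes, 74 were lower at 48 h than at 24 h, with a median log2 difference of −0.22.

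The subunits moved much alike. The 33 genes of the 40S subunit went from 8.53% of UMIs to 11.1% and 9.66%, with median gene ratios of 0.49 and 0.22, and 29 and 23 of them were above 0 at the respective times. The 48 genes of the 60S subunit went from 10.9% to 14.2% and 12.4%, with medians of 0.39 and 0.21, and 44 and 37 above 0. Of all 10868 features, 3317 were above 0 at 24 h and 4519 at 48 h. The range within a subunit was far wider than the gap between them, from −0.73 to 0.80 at 24 h and −1.02 to 0.84 at 48 h for 40S genes.

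**Figure D4:**
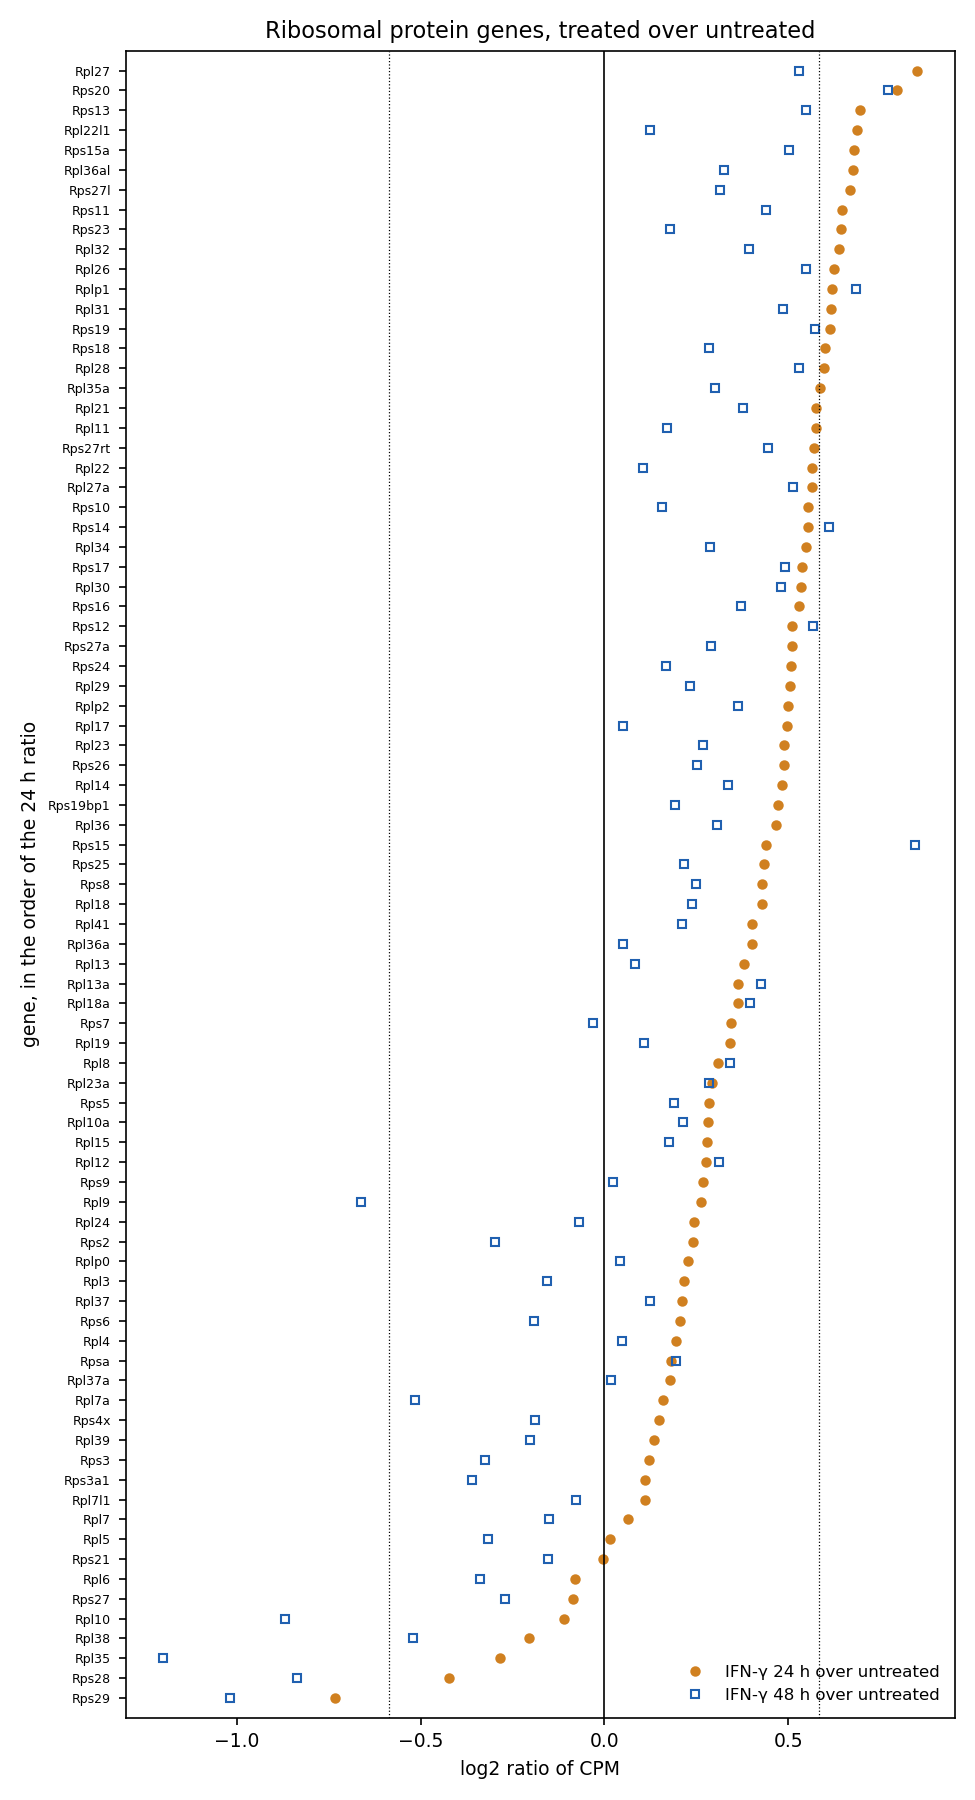
Log2 ratio of CPM to untreated for each of the 83 genes (rows, ordered by the 24 h value) at 24 h (filled circles) and 48 h (open squares); dotted lines mark 1.5-fold. At 24 h, 17 genes lie right of the upper line and Rps29 alone left of the lower line; at 48 h, Rpl35, Rps29, Rpl10, Rps28 and Rpl9 lie left of it.

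A few genes departed downward from the group. Rps29, a zinc-binding protein of the 40S head, was at 3326 CPM in untreated, 2001 CPM at 24 h and 1640 CPM at 48 h, which gave log2 ratios of −0.73 and −1.02. Rps28, also in the 40S head, was at 1860, 1387 and 1042 CPM (log2 −0.42 and −0.84). Rpl35, which sits at the exit of the tunnel for the growing chain, was at 1244, 1023 and 542 CPM (log2 −0.28 and −1.20), the lowest of all members at 48 h. Over all filtered cells, the level of each of these genes was highest in untreated cells and lowest at 48 h.

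Rpl10, which joins the 60S subunit in one of the last steps of its maturation, was at 2170, 2010 and 1188 CPM (log2 −0.11 and −0.87). Rpl38, known for its part in translating Hox messages in the embryo, was at 1610, 1396 and 1122 CPM (log2 −0.21 and −0.52). Rpl9, a protein near the base of the stalk, was at 1783, 2140 and 1127 CPM, so it was above untreated at 24 h (log2 0.26) and below it at 48 h (log2 −0.66). With TMM scaling the 24 h ratios of Rps28 (0.02), Rpl35 (0.16), Rpl38 (0.24) and Rpl10 (0.34) were above 0 and only Rps29 (−0.29) of these 5 stayed below, while at 48 h the ratios of all 6 genes stayed below 0 (−1.01 for Rpl35 to −0.33 for Rpl38). Averaged over equal depth bins, the 48 h ratios were smaller (−0.51 for Rps29 and −0.49 for Rpl35) and that of Rpl38 was 0.01. Within single depth bins, the highest 48 h ratios were above 0. They were 0.13 (Rps29), 0.36 (Rps28), 0.35 (Rpl35), 0.42 (Rpl10), 0.41 (Rpl9) and 0.67 (Rpl38).

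Other genes exceeded the group. Rpl27, a 60S protein, was at 1190, 2147 and 1720 CPM (log2 0.85 and 0.53), the highest member at 24 h. Rps20, of the 40S head, was at 3499, 6073 and 5977 CPM (log2 0.80 and 0.77). Rps13 and Rps15a, both 40S proteins, had log2 ratios of 0.70 and 0.68 at 24 h, and of 0.55 and 0.50 at 48 h. At 48 h Rps15, needed for export of the 40S precursor from the nucleus, was highest, at 1924, 2610 and 3454 CPM (log2 0.44 and 0.84), and it had the largest gain from 24 h to 48 h among the 9 members that were higher at the later time. Rps14 (2640, 3875 and 4034 CPM, log2 0.55 and 0.61) and Rps19 (2336, 3575 and 3476 CPM, log2 0.61 and 0.57), genes mutated or lost in human anaemias, completed the 5 highest at 48 h with Rps20 and Rplp1.

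The stalk proteins recruit the elongation factors to the 60S subunit. Rplp1 was at 3570, 5484 and 5740 CPM (log2 0.62 and 0.69) and its partner Rplp2 at 1784, 2524 and 2297 CPM (log2 0.50 and 0.36). Rplp0, the base of the stalk, was at 5036, 5900 and 5186 CPM (log2 0.23 and 0.04). Among these stalk genes Rplp1 had the highest ratio at both times over all filtered cells. At 24 h this order was not kept in every alternative. Cells over 5% mitochondrial UMIs gave 0.26 for Rplp2 and 0.15 for Rplp1. Cells of 40000 to under 80000 UMIs gave 0.459 and 0.453. Counting intervals hold no spread between libraries, so a difference within the stalk was not tested. Rpsa, which also serves as a laminin receptor, was at 4592, 5209 and 5257 CPM (log2 0.18 and 0.20). Rpl13a, the GAIT subunit, was at 2461, 3170 and 3306 CPM (log2 0.36 and 0.43), below the members' median at 24 h and above it at 48 h.

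The departures can also be expressed within the ribosomal protein RNA itself. This takes the same value from the log2 ratio of every gene at a given time. The order of the genes is therefore unchanged, and the values are not separate support. Expressed as a share of ribosomal protein UMIs, which no library scaling alters, the log2 ratios at 24 h and 48 h were −1.11 and −1.20 for Rps29, −0.80 and −1.02 for Rps28, −0.66 and −1.38 for Rpl35, −0.49 and −1.05 for Rpl10 and −0.11 and −0.84 for Rpl9. They were 0.42 and 0.59 for Rps20, 0.24 and 0.51 for Rplp1 and 0.06 and 0.67 for Rps15. In each of the 5 depth bins at 24 h and 4 at 48 h, and in each of the 6 marker score ranges (for enteroendocrine genes in treated cells, mostly cells without their UMIs), these values of Rps29, Rps28, Rpl35, Rpl10 and Rpl9 stayed below 0 and those of Rps20, Rplp1 and Rpl27 above 0. The bins and ranges divide the same cells in which these genes were picked for their high or low ratios, so they show evenness and are not an independent check. Rpl9 at 24 h was above 0 by CPM (0.26) and below 0 only relative to the group. By CPM, each of the 5 low genes was above 0 in at least 1 depth bin at 48 h. Relative to the group at 48 h, the ratio of Rpl35 ran from −0.92 to −1.42 over the depth bins and that of Rps20 from 0.57 to 0.76. Rps15 was less even, from −0.08 to 0.18 at 24 h and from 0.02 to 0.78 at 48 h.

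**Figure D5:**
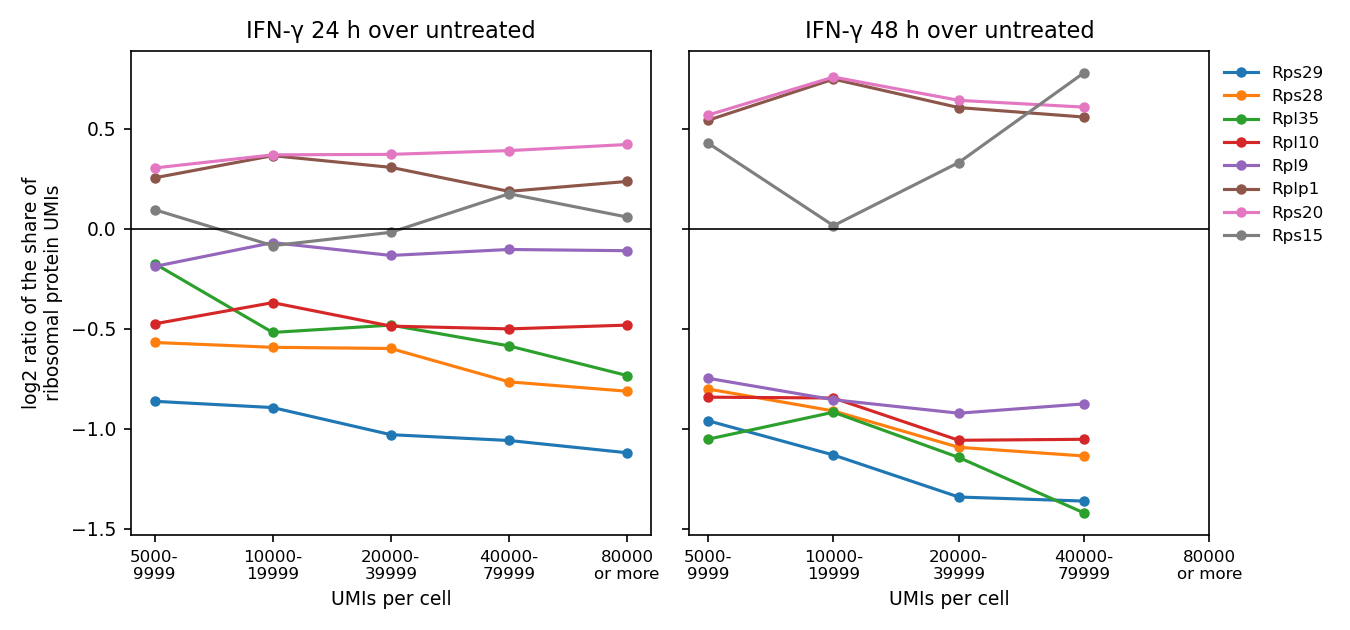
Log2 ratio to untreated of a gene's share of all ribosomal protein UMIs (y axis) by depth bin (x axis, UMIs per cell) for 8 genes, at 24 h (left) and 48 h (right). Rps29, Rps28, Rpl35, Rpl10 and Rpl9 lie below 0 in every bin drawn, Rps20 and Rplp1 above 0, and Rps15 is near 0 at 24 h and ranges from 0.02 to 0.78 at 48 h.

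Many of the same genes led in the barcodes with under 2000 UMIs, which the filter removed. By log2 ratio of CPM, 4 of the 5 lowest members at 24 h and 5 of 5 at 48 h were shared with the filtered cells, and 3 of the 5 highest at each time. There the log2 ratio of the share of ribosomal protein UMIs was −1.03 and −1.10 for Rps29, −0.75 and −0.99 for Rps28, −0.47 and −1.21 for Rpl35, −0.39 and −1.09 for Rpl10 and −0.17 and −0.87 for Rpl9. Rps20 had 0.41 and 0.67 and Rps15 0.18 and 0.62. Much of the pattern among the genes was thus also present in RNA outside the filtered cells of each library.

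Several of the low genes encode very short proteins. By the longest annotated coding sequence, 10 members encode at most 100 residues, a limit chosen after the values were seen, and their median ratio relative to the group was −0.31 at 24 h and −0.36 at 48 h, with 8 of 10 below 0 at each time. For the 73 longer members the medians were 0.10 and 0.06. Rps29 has 56 residues, Rps28 69, Rpl38 70, Rps21 83 and Rps27 84, while Rpl35, at 123 residues, was low without being among the short ones. Over the 83 genes Spearman's rho of coding length and relative ratio was −0.29 at 24 h and −0.22 at 48 h. Over all members, longer genes thus tended to have the lower ratios, which is opposite to the low values of the shortest ones. The members' values here are relative to the group, so the group's 0.38 (24 h) and 0.18 (48 h) were taken from their CPM log2 ratios. The values of other features that follow are plain CPM log2 ratios, so the 2 kinds cannot be set side by side. Among other features with at least 500 CPM in untreated cells, the 14 that encode at most 100 residues had median CPM log2 ratios of 0.33 and 0.12 and the 128 longer ones 0.11 and −0.22. Among all other features with at least 500 UMIs, the 199 short ones had medians of 0.21 and −0.12 and the 10067 longer ones −0.26 and −0.08.

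Paralogues that can take the place of a ribosomal protein shifted within some pairs. Rps27l, a p53 target close to Rps27, was at 588, 934 and 732 CPM (log2 0.67 and 0.32), while Rps27 was at 1059, 998 and 878 CPM (log2 −0.09 and −0.27). Rps27l therefore held 35.7% of the pair's UMIs in untreated cells (exact interval 35.4 to 36.0%), 48.4% at 24 h (48.1 to 48.6%) and 45.5% at 48 h (45.1 to 45.8%). Rpl36al held 48.4%, 53.2% and 53.2% of its pair with Rpl36a, with log2 ratios of 0.68 and 0.33 against 0.40 and 0.05 for Rpl36a.

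Rpl22l1, a paralogue of Rpl22 that also acts in splicing, was at 741, 1194 and 808 CPM (log2 0.69 and 0.12). Its partner Rpl22 had ratios of 0.57 and 0.10, and the share of Rpl22l1 in the pair was 44.4%, 46.5% and 44.7%. Rpl7l1 was at 142, 153 and 135 CPM and held 4.87%, 5.02% and 5.12% of its pair with Rpl7. Rps27rt, a retrotransposed copy of Rps27, held 2.09%, 3.26% and 3.39% of their UMIs. Rps19bp1 had log2 ratios of 0.47 and 0.19. Counting at the 3' end assigns a read to 1 gene only where the sequences differ, so the split of reads between Rps27 and Rps27rt, and between other members and their many processed copies, is uncertain.

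The paralogues known from testis and muscle were nearly absent. Rpl10l had 0 UMIs in all libraries, which allows up to 3 UMIs, or 0.0602, 0.0422 and 0.0635 CPM. Rpl39l had 2, 0 and 1 UMIs, and Rpl3l had 5, 16 and 3. These 3 genes were the members by symbol that stayed below the minimum, and Rps4l was not among the features. The 5 annotated Rpl and Rps pseudogene features held 3428, 8905 and 4222 UMIs, which is small beside the members.

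Ribosomal genes under other names differed in their ratios. Fau, a fusion with the 40S protein eS30, had log2 ratios of 0.50 and 0.49. Rack1, a scaffold on the 40S head, had 0.11 at both times.

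Other messages of the TOP class were closer to their untreated level. Of 18 translation factors and related genes, 0 were past 1.5-fold in either direction at 24 h, and 0 higher and 1 lower at 48 h, with medians of 0.12 and −0.08. Over all features, 5.75% were higher and 28.3% lower at 24 h, and 7.22% and 15.7% at 48 h. Eif3k, a subunit of initiation factor eIF3, was highest (0.44 and 0.47), and Eif3e, another subunit, lowest (−0.16 and −0.59).

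Ribosome assembly genes were mostly higher. Of 24, 23 were above 0 at 24 h (median 0.37, 4 past 1.5-fold higher, 0 lower) and 22 at 48 h (median 0.26, 3 higher, 0 lower). Of all 10868 features, 3317 were above 0 at 24 h and 4519 at 48 h. Past the same fold, 5.75% of all features were higher and 28.3% lower at 24 h, and 7.22% and 15.7% at 48 h. Nolc1, a nucleolar scaffold, was highest at 24 h (0.76) and Bop1, needed for 60S maturation, at 48 h (0.79). The lowest were Rrn3, a factor of RNA polymerase I, at 24 h (−0.15) and Ebna1bp2 at 48 h (−0.31). The 78 mitochondrial ribosomal protein genes had 71 above 0 at 24 h (median 0.41, 12 past 1.5-fold higher, 0 lower) and 51 at 48 h (median 0.08, 2 higher, 4 lower). At 24 h their median was thus close to the 0.43 of the cytosolic genes.

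Some genes of the pathway that lowers translation by phosphorylation of eIF2 gave larger ratios. Of 11 genes for eIF2 kinases and their stress targets, 5 were past 1.5-fold higher and 1 lower at 24 h, and 6 higher and 0 lower at 48 h. Of all features, 5.75% were higher and 28.3% lower at 24 h, and 7.22% and 15.7% at 48 h. The targets Ddit3 (−0.07 and 0.21) and Ppp1r15a (0.20 and −0.20) had small ratios. The kinases were not alike. Eif2ak2 was past 1.5-fold higher at both times (0.63 and 0.87). Eif2ak4 (−0.49) and Eif2ak1 (−0.44) were below 0 at 24 h, and Eif2ak4 was above 0 at 48 h (0.19). Trib3, a target of ATF4, was highest, at 4.08, 21.3 and 29.65 CPM (log2 2.38 and 2.86). Eif2ak3 (PERK), the kinase of the endoplasmic reticulum, was lowest at 24 h (−1.13), and Eif2ak1 lowest at 48 h (−0.21). Of the 6 GAIT genes, Rpl13a included, 1 was past 1.5-fold higher at each time. That was Dapk1, a kinase upstream of RPL13A release, at only 2.53, 5.68 and 5.06 CPM (log2 1.17 at 24 h). Syncrip was the lowest of the list (−0.06 and −0.10).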

How the data were processed

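Single-cell RNA of 3 mouse colon organoid libraries was captured by the authors with 10x Genomics 3' v3 reagents and mapped to mm10 with Cell Ranger 6.0.1, per the labels and the study's methods. The authors deposited UMI counts per gene and barcode, unfiltered for the cell thresholds. The annotation release and read length are not given in the sources used here. From these deposited counts, the study's cell filter was applied (5000 or more UMIs, 400 or more genes, mitochondrial UMIs not above 15%). No doublet caller was run. Counts were summed over cells and expressed as CPM. Log2 ratios carry exact conditional binomial intervals and shares exact Clopper-Pearson intervals (95%). Because each condition has 1 library, no p-value was computed, and members were counted past 1.5-fold. The ratios were tested on simulated counts without spread between libraries, so that test bears on the calculation only. Marker scores used cells thinned to 5000 UMIs. The members and lists were chosen with earlier results of these data known. Genes named are the 5 highest and 5 lowest members at each time, the stalk genes, Rpsa, Rpl13a, the paralogues with their partners, and the highest and lowest gene of each list. Positions are from RefSeq and coding lengths from GENCODE vM21 on GRCm38, the assembly of mm10. Analysis used Python 3.11.15, numpy 2.4.6, scipy 1.17.1 and, for TMM, edgeR 4.0.16. The results for 2 items are not reported here.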

Additional observations from a re-analysis of the deposited data

How the results depend on the processing

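With 1 library per condition, differences between libraries in depth, RNA quality or culture cannot be told apart from IFN-γ. No paired analysis was possible because each condition has 1 library. The log2 ratio of the ribosomal protein share, 0.38 at 24 h and 0.18 at 48 h, stayed above 0 under every alternative except 1: in cells over 5% mitochondrial UMIs, chosen after seeing the data, the 24 h value was −0.0013 and the 48 h value 0.42. It was 0.37 and 0.24 with a minimum of 10000 UMIs per cell, 0.34 and 0.24 with 2000, 0.31 and 0.15 with at most 10% mitochondrial UMIs, 0.49 and 0.39 as a mean over cells, 0.82 and 0.36 with TMM factors, 0.34 and 0.18 without mitochondrial genes in the total, 0.39 and 0.19 without IFN-γ response genes, 0.36 and 0.70 in depth-matched cells (the mean over bins of UMIs per cell), and 0.49 and 0.39 in cells thinned to 5000 UMIs. Other alternatives chosen after seeing the data gave 0.24 and 0.16 with at most 5% mitochondrial UMIs and 0.26 and 0.17 in cells of 40000 to under 80000 UMIs.

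The counts of members moved more than the share. The 17 members past 1.5-fold higher at 24 h became 7 with at most 10% mitochondrial UMIs (5.36% of all features), 2 with at most 5% (5.05%), 0 above 5% (9.76%), 38 as a mean over cells (7.20%), 69 with TMM (22.2%) and 5 in cells of 40000 to under 80000 UMIs (6.18%). The 4 members higher at 48 h became 10 and 11 with a minimum of 10000 and 2000 UMIs (6.91% and 6.62%), 21 as a mean over cells (6.55%), 18 with TMM (12.3%), 27 in cells over 5% mitochondrial UMIs (8.28%) and 55 in depth-matched cells (9.08%). The 1 member lower at 24 h became 0 as a mean over cells (25.3% of all features) and 0 with TMM (10.7%). It became 3 in cells over 5% mitochondrial UMIs (13.7%) and 2 with no minimum of UMIs for members (28.3%). The 5 lower at 48 h became 3 as a mean over cells (19.1% of all features), 2 in cells over 5% mitochondrial UMIs (18.3%) and 0 in depth-matched cells (27.3%). The TMM factors found here raised all ratios of a given time by the same amount, and the cause of the other shifts was not tested. Of 616 alternative values for 28 named genes, 0 of those whose main ratio was past 1.5-fold changed sign. Smaller main ratios could not count here, and several crossed 0. At 24 h, Rpl13a ran from −0.24 to 0.81, Rplp0 from −0.36 to 0.68 and Rpl35 from −0.68 to 0.16. At 48 h, Rpl7 ran from −0.18 to 0.41. Single depth bins were not among these alternatives, apart from that of 40000 to under 80000 UMIs. Within single bins at 48 h, all 5 members past 1.5-fold lower had a CPM log2 ratio above 0 in at least 1 bin. The highest values ran from 0.13 (Rps29) to 0.42 (Rpl10). The 4 members past 1.5-fold higher stayed above 0 in each bin.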
